A study of Rattus norvegicus with 60 samples.

Results

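Cyclic nucleotide phosphodiesterases, the enzymes that degrade cyclic AMP and cyclic GMP, were followed in 5 brain regions of 2 rat lines. The 8 genes were Pde1a, Pde1b, Pde2a, Pde4a, Pde4b, Pde4d, Pde7b and Pde8b, and every probe set that carries one of these symbols alone in the platform annotation was taken, 13 of the 31042 probe sets of the array that are not controls. A probe set is the array's unit of measurement for a transcript. The samples were total RNA of striatum, accumbens, frontal cortex, amygdala and hippocampus from 12 adult rats, each rat hybridized separately to 5 Affymetrix arrays, 60 arrays in all. Of the rats, 6 were congenic NP.P animals and 6 were NP animals, so each region held 6 arrays of either line. NP is a line bred for low alcohol preference. The congenic NP.P line carries a stretch of chromosome 4 from the alcohol-preferring P line on the NP background, which is known of the study and is not stated in the labels. All rats of both lines were housed in pairs with free food and water and were handled each day before decapitation, and the labels name no drug or alcohol treatment for any group. The series title names candidate genes for alcohol preference as its aim. None of the 8 genes lies on chromosome 4 in the rat assembly GRCr8. Pde7b and Pde2a are on chromosome 1, Pde4d and Pde8b on chromosome 2, Pde1a on chromosome 3, Pde4b on chromosome 5, Pde1b on chromosome 7 and Pde4a on chromosome 8.

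Cyclic AMP and cyclic GMP carry signals from receptors to protein kinases and ion channels, and phosphodiesterases end these signals by hydrolysing the cyclic nucleotide. The PDE1 enzymes are switched on by calcium and calmodulin and cleave both nucleotides, PDE2A cleaves both and is stimulated by cyclic GMP, and the PDE4, PDE7 and PDE8 enzymes are specific for cyclic AMP. In the striatum, where dopamine acts through cyclic AMP in medium spiny projection neurons, PDE1B and PDE10A are known as abundant enzymes.

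On 7 of the 60 arrays the pattern of transcripts stood apart from the other arrays with the same region label. They were those labelled amygdala congenic 3, hippocampus congenic 3, accumbens congenic 9, amygdala NP 6, accumbens NP 8, hippocampus NP 8 and hippocampus NP 11. The array labelled amygdala congenic 3 resembled the hippocampus profile most, and the array labelled hippocampus congenic 3 the amygdala profile. Accumbens NP 8 was closest to hippocampus (profile correlation 0.65), and hippocampus NP 8 to accumbens, though only at 0.39. No label was changed, and each result below was also computed on the other 53 arrays. On these, the mean log2 value of 7 markers of medium spiny neurons lay between 11.82 and 12.71 in striatum, 11.37 and 11.99 in accumbens, 10.19 and 11.20 in amygdala, 8.94 and 9.25 in frontal cortex and 8.70 and 8.96 in hippocampus. All 7, Ppp1r1b among them, were higher in striatum and in accumbens than in the other regions, and on all 60 arrays 4 of 5 hippocampal and 4 of 5 cortical markers were higher in the region they mark (limma). The cortical markers did not set the frontal cortex apart fully. With all arrays 3 of the 5 were also called higher in striatum, and 4 of the 5 on the 53 arrays. In tissue samples of this kind, fewer cells of a type and less RNA per cell cannot be told apart.

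Promoter sequences of 6 of the 8 genes were found in the RefSeq table, and Pde1b and Pde7b had no entry. Pde4d has 5 annotated starts, Pde4a 4, and Pde2a and Pde4b 2 each, and which starts each probe set reads was not analysed here. The 250 bases before the single starts of Pde1a and Pde8b are shown because each has 1 annotated start and they differed in their order of regions. The same stretch of the downstream start of Pde2a is shown for contrast, with GC boxes in capitals. All are written 5′ to 3′ on the gene's strand in GRCr8. Pde1a lies at chr3:85431779-85432028 (minus strand), Pde8b at chr2:28116052-28116301 (minus strand) and Pde2a at chr1:165265759-165266008 (plus strand).
Pde1a: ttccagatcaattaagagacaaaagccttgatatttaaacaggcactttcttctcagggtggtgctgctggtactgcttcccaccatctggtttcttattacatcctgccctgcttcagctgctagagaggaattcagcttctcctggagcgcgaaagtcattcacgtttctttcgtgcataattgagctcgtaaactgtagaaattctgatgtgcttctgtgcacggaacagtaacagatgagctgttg
Pde8b: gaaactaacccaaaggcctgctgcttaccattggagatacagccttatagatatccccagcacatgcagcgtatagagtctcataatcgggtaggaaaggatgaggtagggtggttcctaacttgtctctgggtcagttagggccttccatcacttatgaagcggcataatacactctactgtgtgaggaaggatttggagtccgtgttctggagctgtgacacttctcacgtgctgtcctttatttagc
Pde2a: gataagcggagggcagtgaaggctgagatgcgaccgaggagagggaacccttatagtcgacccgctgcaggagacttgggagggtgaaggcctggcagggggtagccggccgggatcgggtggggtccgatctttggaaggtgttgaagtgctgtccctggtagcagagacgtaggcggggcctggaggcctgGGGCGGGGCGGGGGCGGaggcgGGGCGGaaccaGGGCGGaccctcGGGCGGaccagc
Searched on both strands were the cyclic AMP response element TGACGTCA, its half-site TGACG and the GC box GGGCGG. The stretches of Pde1a and Pde8b hold none of them. That of Pde2a holds 6 GC boxes within the last 57 bases, of which the first 2 share 1 base, and no half-site. The window of the other Pde2a start holds no GC box. Of all 33469 promoters of the table, 30.5% hold a GC box in these 250 bases, 18.2% the half-site and 1.59% the full element. Among the 15 promoters of the 6 genes, 6 held a GC box, 4 the half-site and 0 the full element. A match describes the letters only and does not show a binding site. The share of G and C was 44.8% for Pde1a, 47.6% for Pde8b and 68.8% for Pde2a.

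Of the 13 probe sets, 11 had a mean over all arrays above the filter limit of 7.68 log2 units, the 40th percentile of all probe sets. The other 2 belong to Pde4d. Probe set 1368750_a_at of Pde4d had a mean of 6.67 and lay between 6.17 and 7.02 on all arrays, with region means between 6.61 and 6.79. Probe set 1370569_at had a mean of 7.55, with region means of 7.87 ± 0.23 in accumbens, 7.67 ± 0.12 in striatum and 7.39 to 7.44 in the others (SD, n = 12 each). Neither was tested in the fits given here. The probe set with the highest mean stands first for each gene, and levels of different probe sets are not compared, since their probes differ in brightness.

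**Figure D1:**
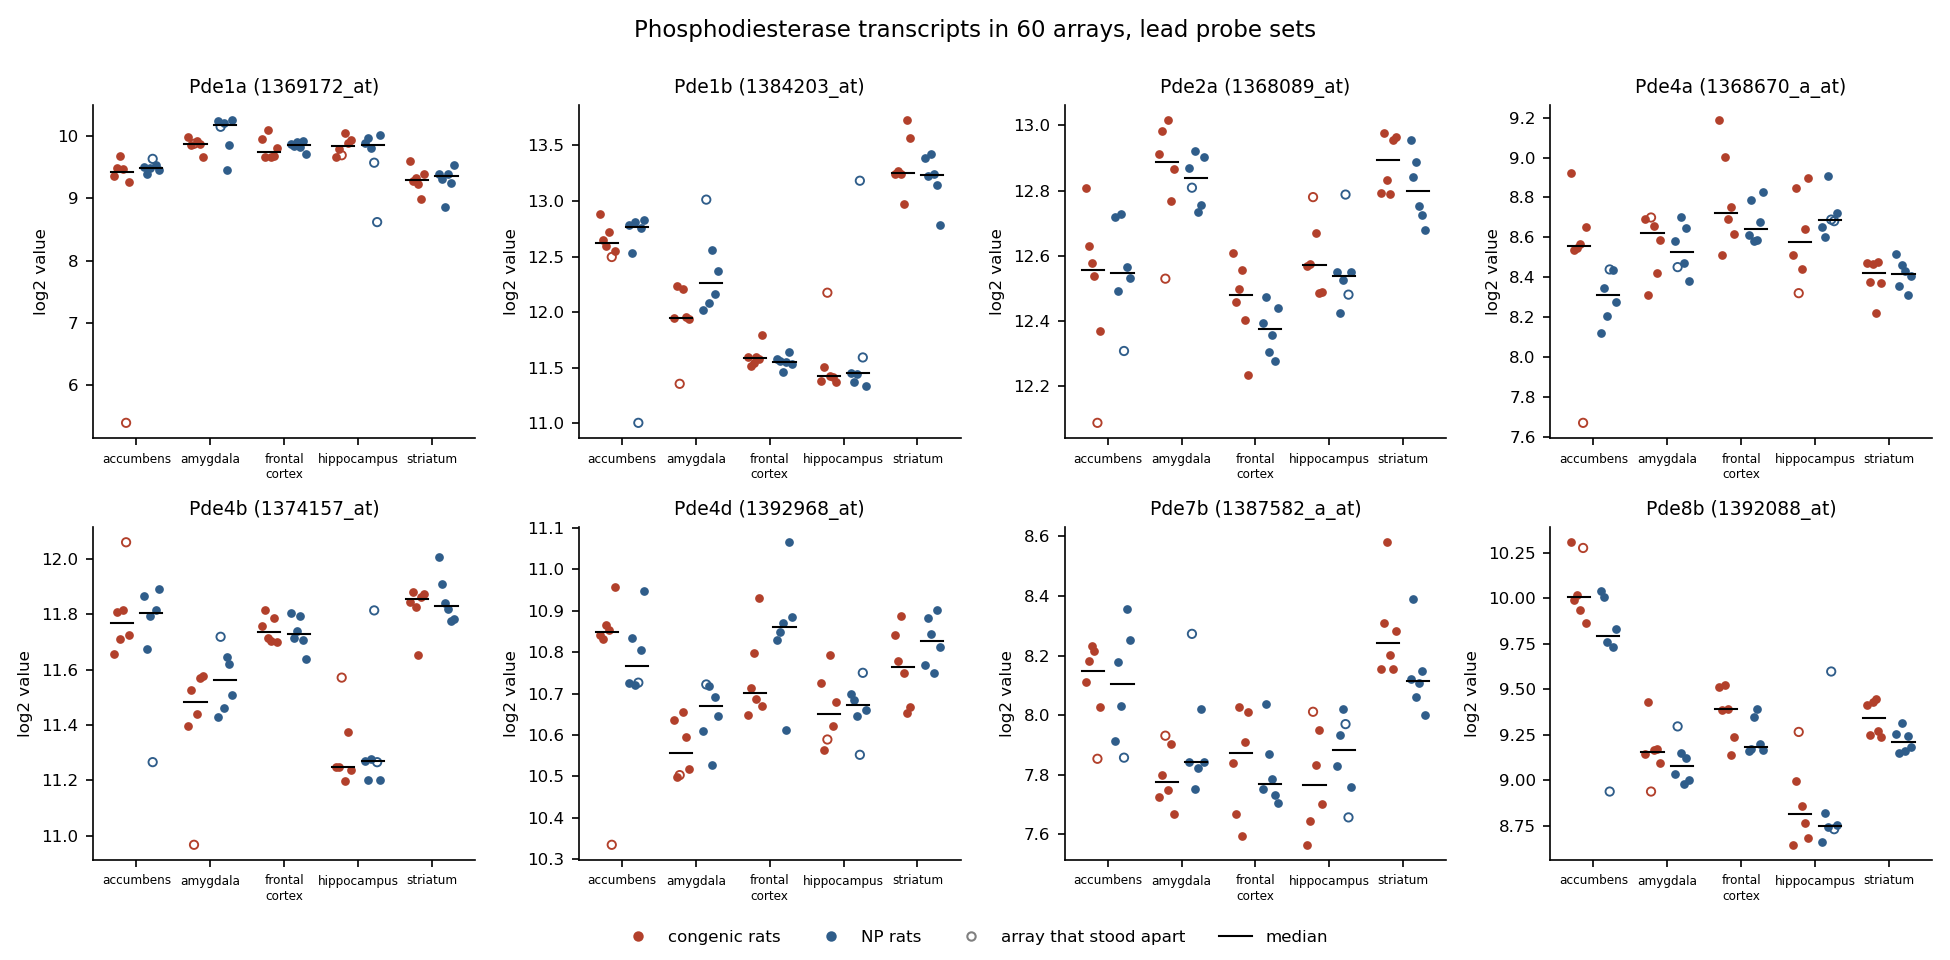
Log2 values of the lead probe set of each of the 8 genes on 60 arrays, by region (x axis) and line, with 1 point per array, the median of 6 arrays as a bar and open points for the 7 arrays that stood apart. Pde1b is highest in striatum and accumbens, Pde1a is lowest there, Pde8b is highest in accumbens, and the lines overlap in nearly every panel.

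Regions were compared within animals with limma, each region against the mean of the other 4, and a difference counts as called where its adjusted p over all 18625 probe sets tested is under 0.05. Differences are the region minus the others on the log2 scale, with their standard errors. The differences of a probe set over the 5 regions sum to 0, so they are not independent of one another. By the F test over regions, all 11 probe sets were called, as were 93.3% of all probe sets tested, so a difference between regions in itself says little about these genes. Against the other regions, 9 of the 11 were called in striatum (69.6% of all probe sets), 8 in accumbens (62.4%), 8 in frontal cortex (61.3%), 7 in hippocampus (54.3%) and 6 in amygdala (47.8%). In striatum 8 were higher, against 26.3% of all probe sets, and 1 was lower, against 43.3%. In hippocampus 0 were higher, against 33.1%, and 7 were lower, against 21.2%. Accumbens had 5 higher and 3 lower (23.5% and 38.9% of all), frontal cortex 3 higher and 5 lower (35.6% and 25.7%), and amygdala 2 higher and 4 lower (29.1% and 18.6%).

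The median difference of the 11 probe sets was 0.26 in striatum, against -0.07 over all probe sets, and -0.22 in hippocampus, against 0.04 over all. In accumbens it was 0.16, against -0.05. These medians, and the counts above and below, take Pde1b, Pde4b and Pde8b by 2 probe sets each. On the 53 arrays, the F test again called all 11, as it did 97.1% of all probe sets. In striatum 8 were then higher and 2 lower, against 29.7% and 48.4% of all probe sets (78.2% together). In hippocampus 2 were higher and 9 lower, against 38.4% and 26.4% (64.8% together). Counts of this kind are not a test against the background, since the members were chosen with earlier results of these data known. Accumbens had 7 higher and 3 lower (25.6% and 44.8%, 70.4% together), frontal cortex 4 and 5 (41.8% and 30.6%, 72.4% together) and amygdala 2 and 6 (39.2% and 23.7%, 62.8% together).

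**Figure D2:**
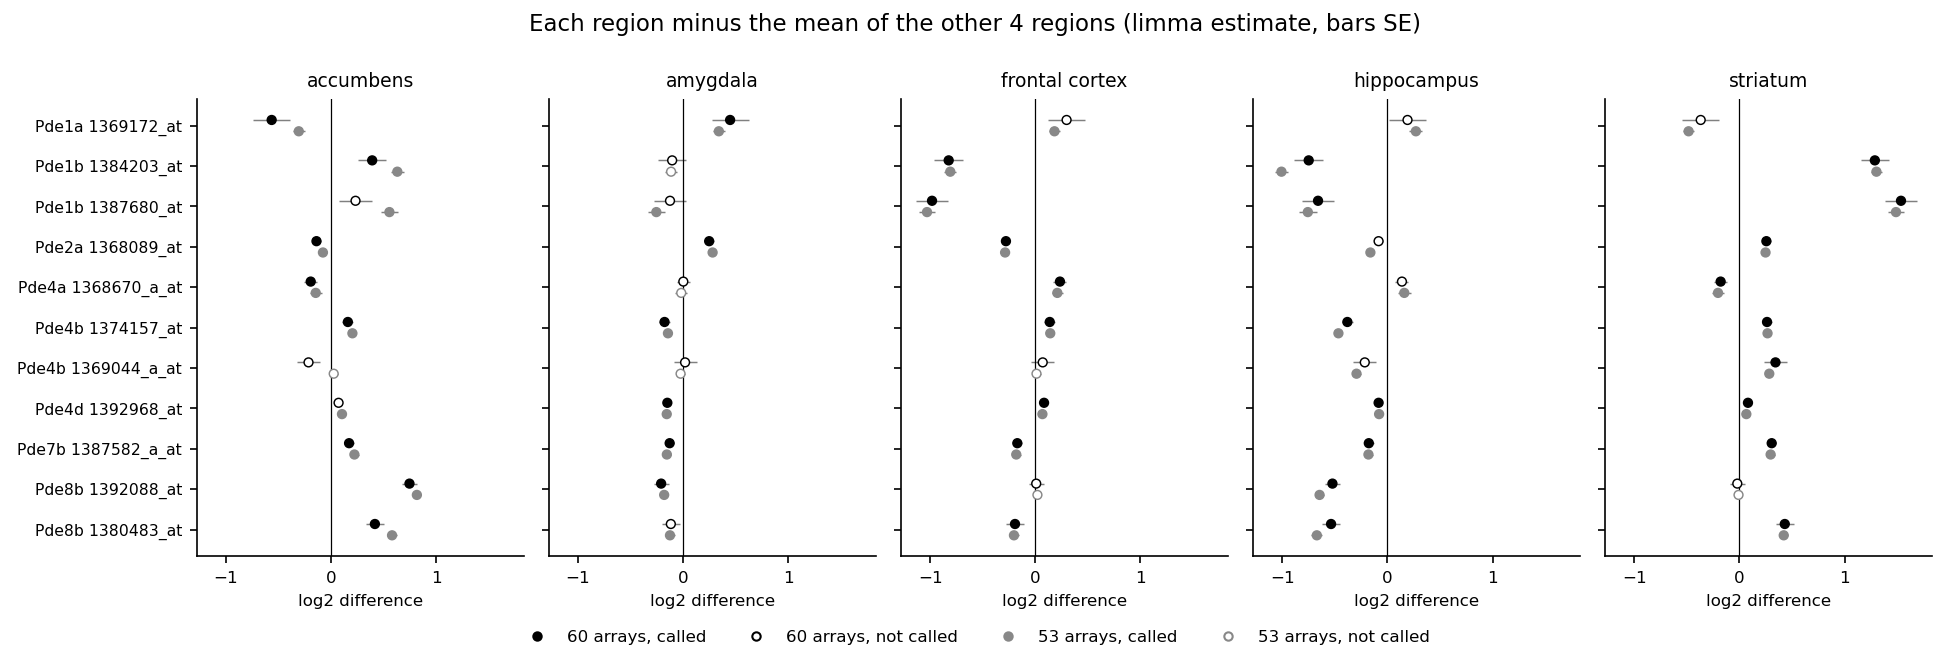
Log2 difference of each region from the mean of the other 4 regions (x axis) for the 11 probe sets past the filter (rows), as limma estimates with SE bars, from 60 arrays (black) and from the 53 arrays that did not stand apart (grey), filled where called. Pde1b in striatum is farthest to the right, and the hippocampus panel holds most of its points to the left of 0.

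Pde1b, a calmodulin-dependent phosphodiesterase, had the widest range over regions. Its lead probe set 1384203_at had a lowest, median and highest log2 value of 12.78, 13.24 and 13.72 in striatum, against 11.01, 12.68 and 12.88 in accumbens and 11.36, 12.12 and 13.01 in amygdala (12 arrays each). In hippocampus the values were 11.34, 11.44 and 13.18, and in frontal cortex 11.46, 11.57 and 11.79. Arrays that stood apart gave the lowest accumbens value, the lowest and highest amygdala values and the highest hippocampus value. Without them, accumbens (12.53 to 12.88) did not overlap with hippocampus (11.34 to 11.51) or frontal cortex, and amygdala (11.94 to 12.56) lay between and reached the lowest accumbens values. Striatum was 2.44-fold higher than the other regions (1.29 ± 0.14, limma, adjusted p = 1.38e-11), and the second probe set 1387680_at of Pde1b 2.90-fold (1.54 ± 0.15, adjusted p = 3.21e-12). The difference was -0.82 in frontal cortex and -0.75 in hippocampus for 1384203_at (limma, adjusted p = 9.39e-07 and 8.64e-06).

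By 1384203_at, the order of Pde1b levels was striatum, accumbens, amygdala, hippocampus and frontal cortex. With all arrays the last 2 did not differ beyond their spread (limma, adjusted p = 0.811). They stood the other way round on the 53 arrays, where 1387680_at kept hippocampus (mean 9.80) above frontal cortex (9.61). Striatum was above accumbens by 0.72 with all arrays (limma, adjusted p = 3.89e-04). On the 53 arrays the means of 1384203_at were 13.27 in striatum and 12.71 in accumbens, and their ranges overlapped. Accumbens differed from the other 4 regions by 0.39 ± 0.14 for 1384203_at (adjusted p = 0.0113) and by 0.23 ± 0.15 for 1387680_at (adjusted p = 0.186), and on the 53 arrays by 0.63 and 0.55, both called. On the 53 arrays 1387680_at was also called lower in amygdala (-0.26, adjusted p = 0.00712). The span from the highest to the lowest region mean was 1.69 for 1384203_at and 2.01 for 1387680_at. Of all probe sets tested, 1.37% and 0.677% had a wider span.

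Over the 60 arrays, the genes whose lead probe set was most like that of Pde1b were Ppp1r1b, which encodes the phosphatase inhibitor DARPP-32 (Pearson's r = 0.986), the adenylyl cyclase gene Adcy5 (r = 0.986) and Asic4, of the acid-sensing ion channel family (r = 0.979). The correlations on the 53 arrays were 0.988, 0.992 and 0.978. Here and below, the arrays behind r share 5 regions and 12 animals, and Ppp1r1b is also 1 of the 7 medium spiny markers. Arrays that stood apart followed the same course. On the array labelled hippocampus NP 8, for instance, Pde1b was at 13.18 and the mean of the 7 medium spiny markers at 11.99.

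**Figure D3:**
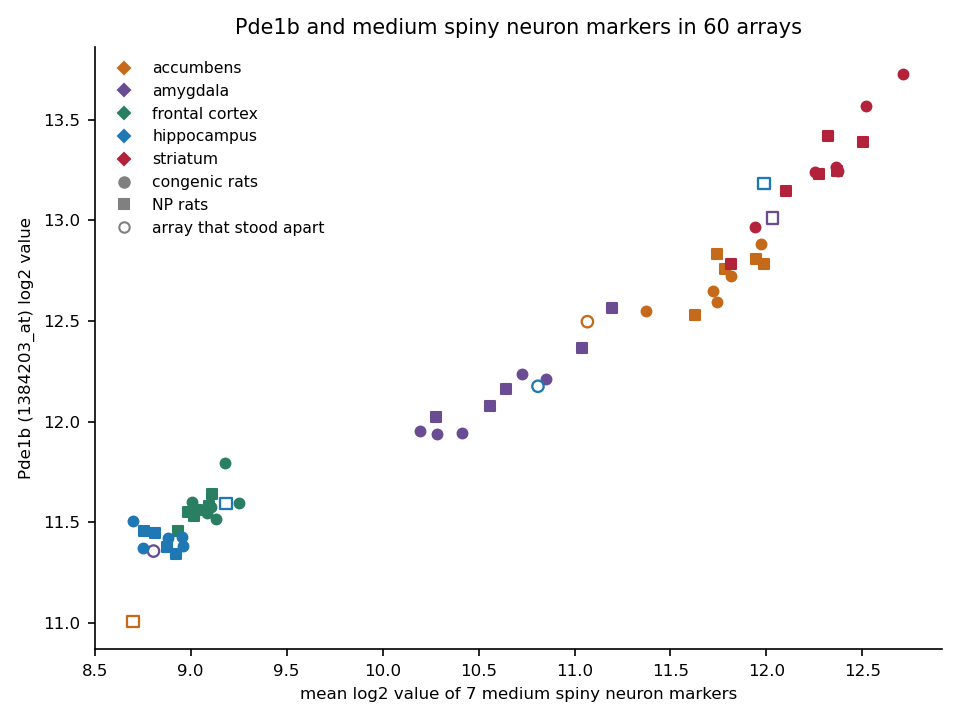
Log2 value of Pde1b probe set 1384203_at (y axis) against the mean log2 value of 7 markers of medium spiny neurons (x axis), 1 point per array, coloured by region label, with circles for congenic and squares for NP rats and open symbols for the 7 arrays that stood apart. Arrays with higher markers have higher Pde1b, and open symbols lie along the same course as filled ones.

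Pde1a, the other calmodulin-dependent enzyme, had its lowest means in accumbens and striatum, where Pde1b had its highest, and its highest mean in amygdala. Its probe set 1369172_at had a lowest, median and highest value of 8.86, 9.32 and 9.61 in striatum and 5.39, 9.48 and 9.69 in accumbens. In hippocampus it had 8.62, 9.85 and 10.05, in frontal cortex 9.66, 9.84 and 10.10, and in amygdala 9.46, 9.91 and 10.26. The values of 5.39 and 8.62 came from the arrays labelled accumbens congenic 9 and hippocampus NP 11, which stood apart. With all arrays, accumbens was 1.48-fold lower than the other regions (-0.57 ± 0.18, limma, adjusted p = 0.00513), amygdala was higher (0.45 ± 0.18, adjusted p = 0.0339) and striatum was not called (-0.37 ± 0.18, adjusted p = 0.0597). The amygdala call ended in 5 of the 12 fits that left out an animal, with an adjusted p of up to 0.0668 (limma). On the 53 arrays the standard errors were 0.05 to 0.06. Striatum then fell by 0.48 (adjusted p = 1.29e-10) and accumbens by 0.31 (adjusted p = 1.56e-05), while amygdala (0.34, adjusted p = 4.54e-06), hippocampus (0.27, adjusted p = 2.13e-04) and frontal cortex (0.18, adjusted p = 0.00308) were higher. The accumbens and striatum means of Pde1a did not differ beyond their spread with all arrays (limma, adjusted p = 0.570).

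The probe set of Pde1a had a residual spread of 0.58 log2 units with all arrays, larger than 99.3% of all probe sets, and 0.18 on the 53 arrays. The genes most like it over 60 arrays were Zyg11b (r = 0.962), Babam2 (0.955) and Snapc5 (0.955), and on the 53 arrays the values were 0.835, 0.800 and 0.804, at ranks 21, 89 and 73 of the genes compared.

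Pde2a, the enzyme stimulated by cyclic GMP, was highest in striatum and amygdala and lowest in frontal cortex. Its means were 12.85 ± 0.10 in striatum, 12.84 ± 0.13 in amygdala, 12.57 ± 0.12 in hippocampus, 12.53 ± 0.20 in accumbens and 12.42 ± 0.11 in frontal cortex (SD, n = 12 each). Striatum and amygdala did not differ beyond their spread (limma, adjusted p = 0.914), and each was about 1.2-fold above the other regions (0.26 ± 0.04 and 0.25 ± 0.04, adjusted p = 9.52e-07 and 5.86e-06). Frontal cortex fell by 0.28 ± 0.04 (adjusted p = 2.36e-07) and accumbens by 0.14 ± 0.04 (adjusted p = 0.00448). On the 53 arrays the accumbens difference was -0.08 (limma, adjusted p = 0.0381), and hippocampus was called lower too (-0.16, adjusted p = 1.15e-04). Of the 11 probe sets, that of Pde2a was the only one called higher in both amygdala and striatum, with all arrays and on the 53 arrays. Its span of 0.43 was exceeded by 46% of all probe sets. The likest genes were Cacnb1, a subunit gene of voltage-gated calcium channels (r = 0.860), Sowaha (0.850) and Nisch (0.839), at ranks 11, 5 and 2 on the 53 arrays.

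The PDE4 genes encode cyclic AMP-specific enzymes that are the targets of the inhibitor rolipram. Pde4b was lowest in hippocampus. Its lead probe set 1374157_at had a lowest, median and highest value of 11.20, 11.26 and 11.81 in hippocampus and of 11.65, 11.84 and 12.01 in striatum. The highest hippocampus value came from the array labelled NP 8, and without the arrays that stood apart hippocampus lay between 11.20 and 11.38, under all other regions. Hippocampus fell by 0.38 ± 0.05 (1.30-fold, limma, adjusted p = 3.05e-08) and striatum was higher by 0.26 ± 0.05 (adjusted p = 1.58e-05), with accumbens (0.16) and frontal cortex (0.14) called higher and amygdala (-0.18) lower. The second probe set 1369044_a_at was called only in striatum (0.34 ± 0.11, adjusted p = 0.00503). Its hippocampus difference was -0.22 ± 0.11 with all arrays (adjusted p = 0.0899) and -0.29 ± 0.04 on the 53 arrays (adjusted p = 1.91e-07). The genes most like Pde4b were Art3 (r = 0.948), Rcan2, which encodes an inhibitor of calcineurin (0.939), and Gucy1b1, which encodes the beta subunit of soluble guanylyl cyclase (0.928).

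Pde4a was highest in frontal cortex, with a mean of 8.74 ± 0.19, and lowest in accumbens and striatum, with 8.39 ± 0.31 and 8.41 ± 0.08 (SD, n = 12 each). Frontal cortex was higher by 0.23 ± 0.06 (limma, adjusted p = 0.00109), accumbens fell by 0.19 ± 0.06 (adjusted p = 0.00620) and striatum by 0.18 ± 0.06 (adjusted p = 0.00963). Pde4a was the single probe set of the 11 called lower in striatum with all arrays, and was joined there by Pde1a on the 53 arrays, on which hippocampus was also called higher for Pde4a (0.16, limma, adjusted p = 0.0191). The likest genes were Cacna2d1 (r = 0.755), Vamp7 (0.722) and Map1b (0.721), at ranks 6, 19 and 3 on the 53 arrays.

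Pde4d was the flattest member by 1392968_at, its only probe set past the filter. Its probe set 1370569_at, under the filter and not tested, had region means from 7.39 in amygdala to 7.87 in accumbens. Region means of 1392968_at lay between 10.61 in amygdala and 10.80 in frontal cortex, a span of 0.19 that 90.3% of all probe sets exceeded. Amygdala fell by 0.15 ± 0.03 (limma, adjusted p = 2.83e-04). The other Pde4d calls were of 0.08 in size, and those in frontal cortex, hippocampus and striatum ended in 5, 7 and 6 of the 12 fits that left out an animal. Accumbens was called as well on the 53 arrays (0.10, limma, adjusted p = 0.00395). The likest genes were Ttll7 (r = 0.663), Dclk1 (0.659) and Mat2b (0.617) over 60 arrays. Without the arrays that stood apart they had r = 0.566, 0.595 and 0.640, at ranks 22, 10 and 3, so this order rests in part on those arrays.

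Pde7b, a cyclic AMP-specific enzyme that rolipram does not block, was higher in striatum and accumbens. Its values had a lowest, median and highest of 8.00, 8.15 and 8.58 in striatum and 7.85, 8.14 and 8.36 in accumbens. They were 7.67, 7.83 and 8.27 in amygdala, 7.59, 7.81 and 8.04 in frontal cortex, and 7.57, 7.83 and 8.02 in hippocampus. The groups overlapped, and the medians of striatum and accumbens were about equal. Striatum was 1.24-fold above the other regions (0.31 ± 0.05, limma, adjusted p = 7.34e-08) and accumbens 1.13-fold (0.17 ± 0.05, adjusted p = 0.00112), and the other 3 regions were each called lower, by 0.13 to 0.18. The striatum and accumbens means did not differ beyond their spread (limma, adjusted p = 0.104). Its likest genes were Meis3 (r = 0.829), Slc35f1 (0.798) and Pde10a (0.791) over 60 arrays. Without the arrays that stood apart they had r = 0.855, 0.824 and 0.797, at ranks 2, 15 and 53, so Slc35f1 and Pde10a are among the first 3 only with those arrays.

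Pde8b, a cyclic AMP-specific enzyme with high affinity for its substrate, was highest in accumbens by its lead probe set 1392088_at. The lowest, median and highest values were 8.94, 9.96 and 10.31 in accumbens, 9.14, 9.29 and 9.52 in frontal cortex and 9.15, 9.25 and 9.45 in striatum. In amygdala they were 8.94, 9.13 and 9.43, and in hippocampus 8.65, 8.76 and 9.60. The lowest accumbens value and the highest hippocampus value both came from arrays labelled NP 8, which stood apart. Without such arrays, accumbens (9.73 to 10.31) did not overlap with any other region. Accumbens was 1.68-fold higher (0.74 ± 0.07, limma, adjusted p = 3.17e-12), hippocampus fell by 0.52 ± 0.07 (adjusted p = 5.55e-08) and striatum did not differ detectably from the mean of the others (-0.02 ± 0.07, adjusted p = 0.807, 95% interval -0.17 to 0.12).

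The second probe set of Pde8b, 1380483_at, had a mean of 7.95, near the filter limit of 7.68, and a hippocampus mean of 7.52. It gave another picture of the striatum. It was higher there by 0.43 ± 0.09 (limma, adjusted p = 2.35e-05) and in accumbens by 0.42 ± 0.09 (adjusted p = 5.48e-05), and the difference of accumbens minus striatum was -0.01 (limma, adjusted p = 0.937), against 0.61 for 1392088_at (adjusted p = 1.96e-07). On the 53 arrays the means of 1380483_at were 8.41 in accumbens and 8.29 in striatum, against 9.95 and 9.28 for 1392088_at. Accumbens then differed from the other regions by 0.58 for 1380483_at (limma, adjusted p = 6.92e-14). Both probe sets were lowest in hippocampus (-0.54 and -0.52 with all arrays). The amygdala difference of 1380483_at was called on the 53 arrays only (-0.13, limma, adjusted p = 0.0239). Which transcripts of Pde8b each probe set reads was not analysed here. The genes most like the lead probe set were Trerf1 (r = 0.885), Rln1 (0.870) and the neuropeptide gene Cartpt (0.866).

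**Figure D4:**
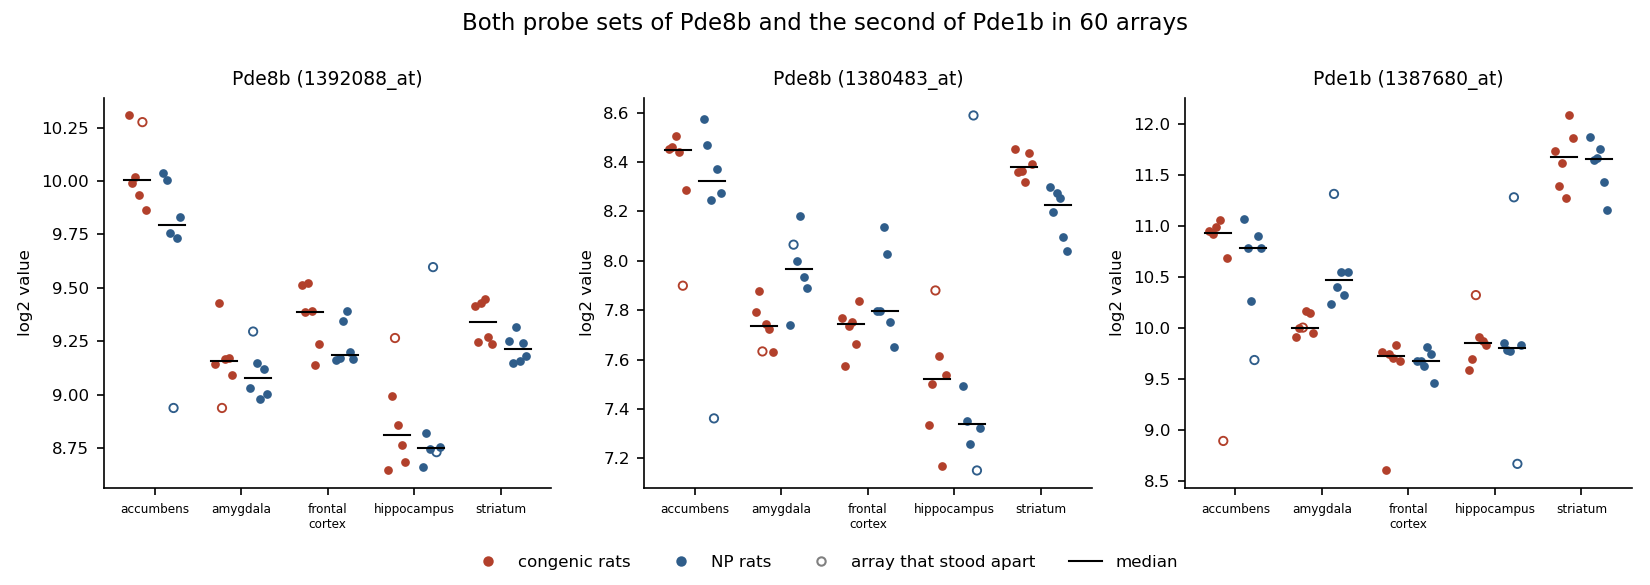
Log2 values of both probe sets of Pde8b and of the second probe set of Pde1b on 60 arrays, by region (x axis) and line, with 1 point per array, medians as bars and open points for arrays that stood apart. In striatum, 1380483_at of Pde8b lies near its accumbens values, whereas 1392088_at lies below them.

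The lines were compared by the mean over the 5 regions of each animal and then region by region, congenic minus NP. Of the 11 probe sets, 0 were called in the mean over regions, where limma called 23 of all 18625 (0.123%). In the single regions 0 were called as well, against 0.0644% of all probe sets in striatum, 0.0537% in frontal cortex, 0.0322% in amygdala and 0.00537% in accumbens and in hippocampus. The interaction of line and region had 0 calls among the members and 0 among all probe sets. At an unadjusted p under 0.05 there was 1 of 11 in the mean over regions (5.33% of all probe sets), 4 in amygdala (5.96%), 2 in striatum (4.86%) and 0 in each of accumbens (1.97%), frontal cortex (6.38%) and hippocampus (3.95%). On the 53 arrays the members again had 0 calls in each of these comparisons, where limma called 0.156% of all probe sets in the mean over regions, 0.0644% in striatum, 0.043% in accumbens, 0.0537% in frontal cortex, 0.0966% in amygdala, 0.0376% in hippocampus and 0.0107% for the interaction.

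**Figure D5:**
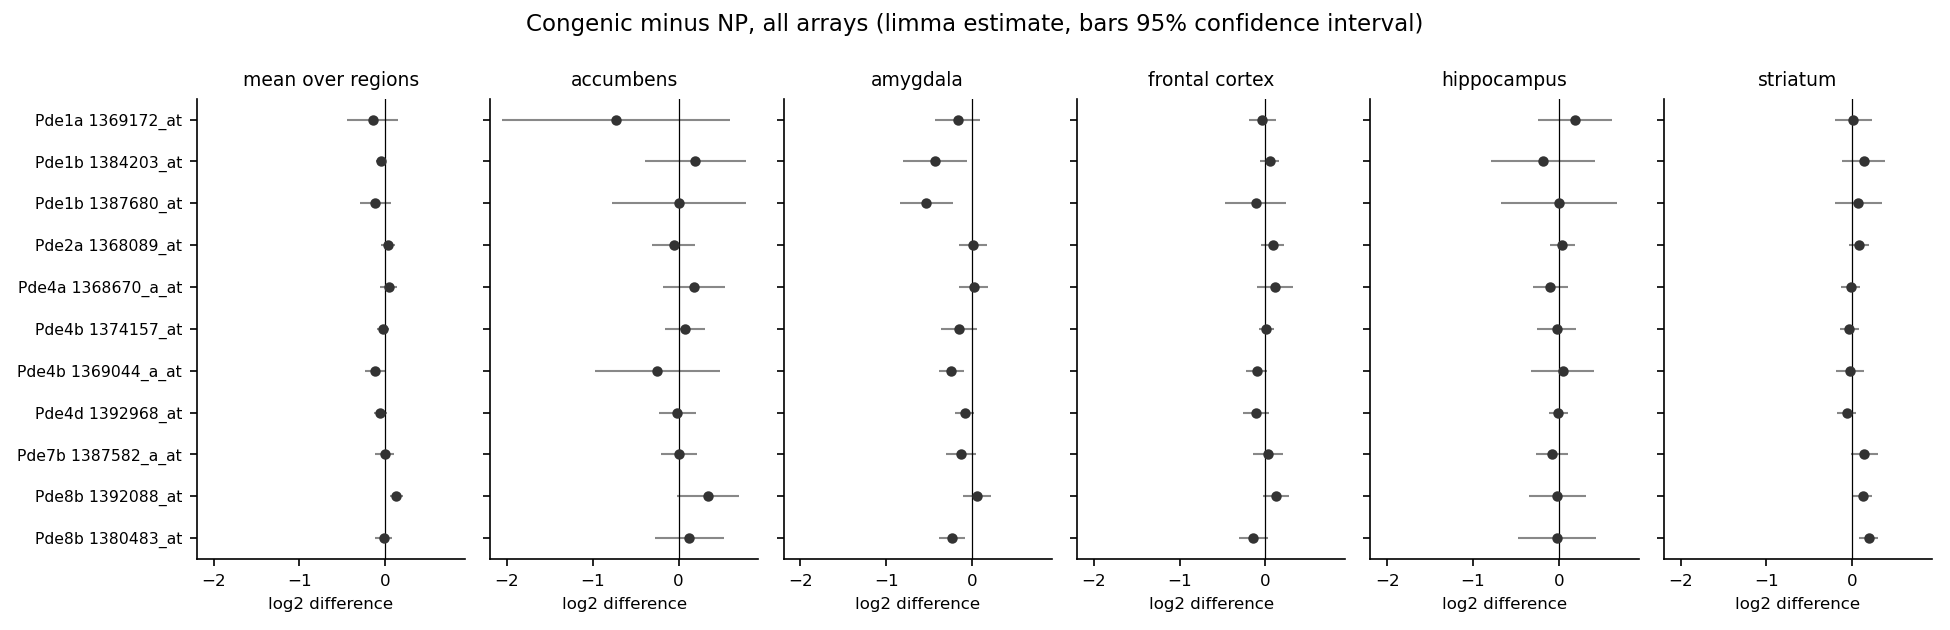
Congenic minus NP log2 difference (x axis) of the 11 probe sets past the filter (rows), as limma estimates with 95% confidence intervals, in the mean over regions (6 animals per line) and in each region (6 arrays per line). Interval widths differ between probe sets and regions, with a wide interval for Pde1a in accumbens, and none of the differences was called.

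Pde8b probe set 1392088_at had the smallest unadjusted p of the members in the mean over regions. The animal means were 9.22, 9.32, 9.36, 9.40, 9.41 and 9.43 in congenic rats, against 9.19, 9.20, 9.21, 9.23, 9.26 and 9.29 in NP rats. All but 1 of the congenic animals lay above all NP animals. The difference of 0.13 ± 0.03 (1.09-fold, 95% interval 0.05 to 0.20) had an unadjusted p of 0.00244 and was not called after adjustment (limma, adjusted p = 0.626). By region it was 0.35 in accumbens, 0.13 in frontal cortex, 0.12 in striatum, 0.06 in amygdala and -0.02 in hippocampus, and on the 53 arrays 0.15, 0.13, 0.12, 0.14 and 0.04 in the same order. The second probe set of Pde8b had a difference of -0.02 in the mean over regions (95% interval -0.11 to 0.08). In striatum, 1380483_at lay between 8.32 and 8.45 in congenic rats, against 8.04 and 8.30 in NP rats, without overlap, but its difference of 0.19 ± 0.05 was not called (limma, adjusted p = 0.689).

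In the amygdala, 4 probe sets had an unadjusted p under 0.05, all lower in congenic rats and none called. Pde1b by 1387680_at had a lowest, median and highest value of 9.91, 10.01 and 10.16 in congenic rats, against 10.24, 10.48 and 11.32 in NP rats, without overlap. The difference of -0.53 ± 0.14 had an adjusted p of 0.418 (limma), and on the 53 arrays it was -0.38 (adjusted p = 0.108). The lead probe set of Pde1b had -0.43 ± 0.17 (adjusted p = 0.761) and, on the 53 arrays, -0.18 (adjusted p = 0.842). For Pde4b 1369044_a_at the difference was -0.24 ± 0.07 (adjusted p = 0.438) and for Pde8b 1380483_at -0.23 ± 0.07 (adjusted p = 0.504). The medium spiny markers moved in the same direction in these samples. The mean of the 7 markers had a lowest, median and highest of 8.81, 10.35 and 10.85 in congenic amygdala, against 10.28, 10.84 and 12.03 in NP amygdala, and on the 53 arrays 10.19, 10.41 and 10.85, against 10.28, 10.64 and 11.20. Their part in the Pde1b difference was not tested.

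In the accumbens, Pde4a showed the smallest p on the 53 arrays. It lay between 8.54 and 8.92 in congenic rats, against 8.12 and 8.44 in NP rats (5 arrays each), a difference of 0.37 ± 0.08 that was not called (limma, adjusted p = 0.335). With all arrays it was 0.18 ± 0.17 (adjusted p = 0.946), with a value of 7.67 on the array labelled congenic 9. Pde1a had -0.73 ± 0.61 in accumbens with that array, on which its value was 5.39, and -0.02 on the 53 arrays. The differences of the other members in the mean over regions lay between -0.14 for Pde1a and 0.04 for Pde4a. The 95% interval ran from -0.11 to 0.02 for the lead probe set of Pde1b, from -0.09 to 0.04 for that of Pde4b and from -0.44 to 0.15 for Pde1a.

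Other genes of cyclic nucleotide signalling were read from 8 lists with 1 probe set a gene, 58 genes past the filter. Between the lines, 0 of the 58 were called in the mean over regions or in any region. Against the other regions, striatum had 25 higher and 16 lower, accumbens 19 and 17, frontal cortex 17 and 17, amygdala 12 and 13, and hippocampus 6 and 26 (the shares over all probe sets are those given above). Of the other phosphodiesterases, 14 of 16 listed genes are on the array and 8 passed the filter. In striatum, Pde10a, the enzyme of medium spiny neurons that cleaves both nucleotides, was 4.25-fold higher (2.09 ± 0.19, limma, adjusted p = 1.13e-13), with a mean of 13.71 ± 0.23 there, against 12.21 ± 0.81 in accumbens and 11.21 to 11.69 in the other regions (SD, n = 12 each). Pde9a, which is specific for cyclic GMP, was higher in amygdala (0.28 ± 0.05) and Pde8a lower there (-0.26 ± 0.05). Pde6g, known from photoreceptors, was lower in frontal cortex (-0.49 ± 0.21, adjusted p = 0.0413), with an SD of 1.37 over the hippocampus arrays.

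Among the adenylyl cyclases, which make cyclic AMP, Adcy5 was 2.84-fold higher in striatum (1.51 ± 0.13), Adcy8, which calcium activates, 2.53-fold higher in amygdala (1.34 ± 0.12), and Adcy9 (0.66 ± 0.06) and Adcy2 (0.48 ± 0.03) were higher in frontal cortex. In the G protein list, Gnal, which couples dopamine D1 receptors to the cyclase in striatum, fell by 1.48 ± 0.17 in frontal cortex, and Gnao1 (0.99 ± 0.09) and Gnai2 (0.55 ± 0.04) of the inhibitory group were higher in striatum, while Gnaz was lower in accumbens (-0.37 ± 0.04). Of the 5 guanylyl cyclase genes past the filter, 5 were higher in accumbens (23.5% of all probe sets) and 3 lower in hippocampus (21.2%). On the 53 arrays these counts were 4 and 4, against 25.6% and 26.4% of all probe sets. Gucy1a1 fell by 1.42 ± 0.21 and Gucy1b1 by 0.78 ± 0.09 in hippocampus, the subunits of the cyclase that nitric oxide activates, and Gucy2e (0.28) and Npr1 (0.15), which encode membrane guanylyl cyclases, were higher in accumbens. Gucy2e had means of 9.06 in accumbens and 9.00 in striatum, and Npr1 of 8.47 in accumbens and 8.44 in hippocampus. Nos2 was the only nitric oxide synthase gene past the filter and was higher in striatum (0.38 ± 0.03). Its mean was 9.23 there, against 9.21 in accumbens and 8.71 to 8.75 in the other regions.

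Among the targets of cyclic AMP, Prkaca, the catalytic subunit of protein kinase A, was 1.74-fold higher in striatum (0.80 ± 0.05), Prkar2b, a regulatory subunit, fell by 0.94 ± 0.13 in hippocampus, and Prkar1b was lower in accumbens (-0.38 ± 0.03). Pkig, an inhibitor of the kinase, was higher in amygdala (0.36 ± 0.07). Of the 8 genes of protein kinase G, Epac and cyclic nucleotide channels past the filter, 5 were higher in striatum (26.3% of all probe sets) and 6 lower in hippocampus (21.2%), and without the arrays that stood apart 5 and 5 (29.7% and 26.4%). Named by size, Prkg2 fell by 0.61 ± 0.07 in hippocampus, and Hcn2, a channel gated by voltage and cyclic nucleotides, was higher in striatum (0.51 ± 0.05). Cnga2 was higher in accumbens (0.43 ± 0.04), with means of 9.09 there and 8.95 in striatum. Rapgef4, an exchange factor that cyclic AMP activates, was higher in striatum (0.43 ± 0.05), with means of 12.29 there and 12.20 in frontal cortex. Ppp1r1b was 5.67-fold higher in striatum (2.50 ± 0.21). Arpp19 and Arpp21, which encode cyclic AMP-regulated phosphoproteins, fell by 1.01 ± 0.11 and 0.95 ± 0.16 in hippocampus, where Akap13, an anchor of protein kinase A, was higher (0.83 ± 0.08). All of these named genes were called by limma over all probe sets, each with an adjusted p of 0.0413 or less, and each was called with the same sign on the 53 arrays.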

How the data were processed

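Total RNA of 5 brain regions from 12 rats was hybridized to 60 Affymetrix arrays, after Trizol extraction and biotin labelling of each rat's RNA by itself, per the labels' protocols. The authors deposited log2 values for 31099 probe sets, 57 of them controls; the summarization, the normalization and the array's genome build are not given in the sources used here. Deposited values ran between 4.58 and 16.01, and array medians between 8.23 and 8.35. Gene symbols came from the platform annotation (20826 probe sets with a single symbol, 436 with several, 9780 not listed); symbols were updated by gene ID, and chromosomes and promoters came from RefSeq tables of GRCr8.

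From these values, probe sets with a mean at or above the 40th percentile were tested with limma (version 3.58.1, R 4.3.3), two-sided, with Benjamini-Hochberg adjustment over 18625 probe sets. Lines were compared by animal means over the regions and on the 12 arrays of each region. Regions were compared with the animal as a fixed block, since the labels give each animal's number in all regions. Deviations of arrays of the same animal had a mean correlation of 0.0139 over 120 pairs, against -0.00627 over 600 pairs of different animals. The animal numbers pair regions and not lines. An array stood apart when its median correlation with the other arrays of its region was under 0.98 or its correlation with its own region's profile was under 0.5. The tests were checked on simulated data with independent noise, which held no arrays that stood apart and no likeness between arrays of an animal. With arrays, precision is limited by their number. The rule for named genes was every member probe set, the lead being that with the highest mean; up to 4 called genes of each pathway list with the largest region difference; and the 3 genes most like each lead probe set by Pearson's r. The members and all lists were chosen with earlier results of these data known. Alternatives were other normalizations and filters, a trended prior, random or no animal block, and leaving out each animal or the arrays that stood apart. Figures were drawn with Python 3.11.15 and matplotlib 3.10.9, with pandas 2.3.3 and numpy 2.4.6.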

Additional observations from a re-analysis of the deposited data

Results flagged for a closer look

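In 17 of 80 groups of 6 arrays (1 lead probe set, region and line each), a single array lay farther from the other 5 than Dixon's 95% critical value allows. Chance flags about 1 in 20 such groups. Of these, 14 came from the arrays that stood apart, and 3 from other arrays.

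The array labelled accumbens congenic 9 had 5.39 for Pde1a, against 9.26 to 9.69 on the other 5 arrays of its group, 7.67 for Pde4a (others 8.54 to 8.92) and 10.33 for Pde4d (others 10.83 to 10.96). The array labelled hippocampus NP 8 had 13.18 for Pde1b (others 11.34 to 11.59), 12.79 for Pde2a (others 12.42 to 12.55), 11.81 for Pde4b (others 11.20 to 11.28) and 9.60 for Pde8b (others 8.66 to 8.82). The array labelled accumbens NP 8, of the same animal, had 11.01 for Pde1b (others 12.53 to 12.83), 11.27 for Pde4b (others 11.68 to 11.89) and 8.94 for Pde8b (others 9.73 to 10.04). Amygdala congenic 3 had 11.36 for Pde1b (others 11.94 to 12.24) and 10.97 for Pde4b (others 11.40 to 11.58), and hippocampus congenic 3 had 12.18 for Pde1b (others 11.37 to 11.51). Hippocampus NP 11 had 8.62 for Pde1a (others 9.58 to 10.02).

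Outside the arrays that stood apart, frontal cortex congenic 10 had 11.79 for Pde1b (others 11.52 to 11.60), striatum congenic 4 had 11.65 for Pde4b (others 11.83 to 11.88), and striatum congenic 3 had 8.58 for Pde7b (others 8.15 to 8.31).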

How the results depend on the processing

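Leaving out the arrays that stood apart raised the hippocampus calls to 11 members (64.8% of all probe sets), from 7 (54.3%). Quantile normalization lowered the frontal cortex calls to 5 members, from 8 in the main fit (61.3% of all probe sets). For the other alternatives, as for quantile normalization, shares over all probe sets are not given. Their counts are therefore not a result about the members. With the filter at the 60th percentile, which tests fewer probe sets, 5 members were called in frontal cortex and 5 in accumbens. The frontal cortex difference of Pde4d turned to -0.0057 under quantile normalization (limma, adjusted p = 0.911), and the cause was not tested. Leaving out each animal in turn gave 8 to 10 members called in accumbens, 5 to 7 in amygdala, 6 to 8 in frontal cortex, 6 to 8 in hippocampus and 8 to 10 in striatum. No called difference changed sign, while 3 uncalled ones near 0 did: Pde4a (-0.02 to 0.02) and Pde4b 1369044_a_at (-0.03 to 0.06) in amygdala and Pde8b 1392088_at (-0.01 to 0.03) in frontal cortex. Leave-outs ended the call of Pde8b 1380483_at in frontal cortex in 10 of 12 fits, of Pde1a in amygdala in 5 and of Pde7b and of Pde8b 1392088_at in amygdala in 1 each. Without animal 9, Pde1a in striatum was called at -0.43 (limma, adjusted p = 6.18e-06). Without the replicate block of animals the members called were the same in number, 8, 6, 8, 7 and 9 in the order of the regions above. No member was called between the lines under any alternative. The lowest adjusted p was 0.0683 when leaving out an animal (limma) and 0.288 with a random block. The former was that of Pde8b 1392088_at in the mean over regions, where the 12 leave-outs gave 0.0683 to 0.9996. Over all probe sets, the line calls in amygdala were 18 and in accumbens 8 without the arrays that stood apart, against 6 and 1 with all arrays.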
